A study of Mus musculus with 12 samples.

Results

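The mouse genes whose symbol starts with Kcn encode potassium channel subunits and the auxiliary proteins that assemble with them. They were taken by symbol alone, with no measured value entering the choice, and numbered 94 of the 20989 loci in the 12 libraries. Each library held the poly-A RNA of auditory cortex dissected from acute coronal brain slices of a C57bl6/J mouse aged 4 weeks. In each of 6 mice, the slices of one hemisphere lay for 1 h in control artificial cerebrospinal fluid (aCSF), giving 6 control libraries. Those of the other hemisphere lay for 1 h in aCSF with a pharmacological cocktail, giving 6 cocktail libraries. The cocktail held 50 µM (-)-bicuculline methiodide, which blocks inhibitory GABA-A receptors, together with 100 µM norepinephrine, 50 µM carbamoylcholine, 100 µM dopamine and 100 µM serotonin, which act on neuromodulatory receptors, and 40 µM ascorbic acid. The labels give no transgene or other allele. The study's methods add a rest of 1 h in aCSF after the incubation, for both hemispheres, that the labels do not mention. The comparisons below ask at what level each of these genes was present in control tissue, and whether that level differed in the cocktail-treated hemisphere of the same brain.

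Potassium channels let potassium ions leave or enter a cell along their gradient, and by doing so set the resting potential, end the action potential and limit repetitive firing. Voltage-gated channels (Kv) open on depolarization, inward rectifiers (Kir) hold the cell near rest, K2P channels carry a background leak, and calcium- or sodium-activated channels follow the ion that entered during a spike. Several receptors for the transmitters in the cocktail are known to close or open such channels within seconds, which is a different matter from the transcript levels measured here. Levels are given in FPKM, fragments scaled by transcript length and library depth, so that genes can be set side by side.

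What the channel-forming members share in sequence is the selectivity filter, the short stretch of the pore loop that lets potassium pass and holds sodium back. A search of the coding sequences (GENCODE, GRCm38) for the codons of this filter found it once in 63 members and 2 times in 14 members, and did not find it in the remaining 17. The 14 with 2 copies were the 14 K2P genes, whose single chain carries a pair of pore loops, and the 17 without it were the 17 auxiliary genes, which form no pore. The lines below show 45 bases around the filter, 5′ to 3′ on the coding strand. They cover the leading members of several subfamilies and some, not all, of the members whose fold changes are described below. Capitals mark the 15 bases that encode the filter: a threonine or serine, then threonine, valine, isoleucine or leucine, a glycine, then tyrosine, phenylalanine or leucine, and a glycine. For the K2P genes the second copy is shown.
Kcna2, chr3:107105209-107105253, plus strand: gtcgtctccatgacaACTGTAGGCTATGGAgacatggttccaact
Kcnc1, chr7:46427958-46428002, plus strand: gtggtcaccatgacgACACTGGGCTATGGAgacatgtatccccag
Kcnf1, chr12:17175046-17175090, minus strand: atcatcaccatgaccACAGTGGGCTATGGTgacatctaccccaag
Kcnh4, chr11:100750278-100750322, minus strand: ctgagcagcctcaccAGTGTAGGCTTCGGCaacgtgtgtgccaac
Kcnh7, chr2:62777328-62777372, minus strand: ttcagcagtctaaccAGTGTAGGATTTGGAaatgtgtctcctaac
Kcnj2, chr11:111072192-111072236, plus strand: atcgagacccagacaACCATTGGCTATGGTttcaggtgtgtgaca
Kcnj4, chr15:79485352-79485396, minus strand: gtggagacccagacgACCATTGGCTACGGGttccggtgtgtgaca
Kcnk1, chr8:126025314-126025358, plus strand: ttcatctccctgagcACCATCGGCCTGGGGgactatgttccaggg
Kcnk12, chr17:87746438-87746482, minus strand: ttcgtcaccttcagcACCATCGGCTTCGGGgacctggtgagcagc
Kcnma1, chr14:23528398-23528442, minus strand: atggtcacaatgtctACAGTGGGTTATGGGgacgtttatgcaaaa

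The libraries held between 10601067 and 19768881 reads assigned to loci, as recovered from the interval deposited with each FPKM, and the Kcn genes together took 0.603 to 0.634% of them in control and 0.576 to 0.621% in cocktail. This share was lower in cocktail in 6 of 6 mice. Summed FPKM was lowest in the control library of mouse 1, at 290155, against 306085 to 321759 in the other 11. Genes that mark stimulated neurons checked the treatment labels: Fos, Fosb, Junb, Arc, Egr1, Npas4, Nr4a1 and Dusp1 all rose in cocktail (limma, adjusted over all loci), with a log2 fold change of 0.55 to 0.99. Markers of cortical excitatory and inhibitory neurons were all above the level tested, while of 6 choroid plexus markers 5 lay below 1 FPKM, with Otx2 listed at 0 in every library. In such bulk tissue, fewer cells of a type and less RNA per cell cannot be told apart.

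In control aCSF, 29 Kcn genes had a mean of at least 20 FPKM, 19 lay from 5 to under 20, 18 from 1 to under 5, and 28 under 1. A mean of 1 FPKM or more over the 12 libraries was asked of a gene to enter the test, and 66 of the 94 (70.2%) had it, against 57.3% of all loci. The median control level of these 66 was 14.8 FPKM, against 10.2 over all loci tested. Their spread between mice was ordinary: the median coefficient of variation over the 6 control libraries was 11.9%, against 11.0% over all loci tested, and ran from 3.68% for Kcnh3 to 28.8% for Kcng2.

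By function, voltage-gated alpha subunits made up the largest share of the summed Kcn level in control, with 38.7% from 30 genes. The 17 auxiliary genes gave 23.9%, the 15 inward rectifiers 15.7%, the 14 K2P genes 9.33% and the 10 electrically silent subunits, which modify Kv2 channels and carry no current alone, 6.99%. Calcium-activated channels gave 2.87% from 5 genes and the sodium-activated channels with Slo3 gave 2.46% from 3.

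Kcnab2 was the most abundant member. It encodes a Kv beta subunit, a cytoplasmic protein bound to Kv1 channels, and stood at 103 ± 10.3 FPKM in control (SD, n = 6; lowest 92.3, median 101, highest 121). The other beta subunits followed far below, Kcnab3 at 22.9 ± 2.33 and Kcnab1 at 22.0 ± 2.94 FPKM, so that Kcnab2 exceeded Kcnab3 by a ratio of 4.52. Among the channels they bind, Kcna2 had 30.2 ± 4.57, Kcna1 26.2 ± 3.69 and Kcna6 22.3 ± 1.04 FPKM. These 3 genes carried nearly the whole Kv1 sum of 84.7 FPKM: Kcna4 had 3.02 and Kcna3 2.44 FPKM, and Kcna5, Kcna7 and Kcna10 were all under 1.

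Of the Kv7 genes, whose products form the M channel, the slow current that muscarinic receptors close, Kcnq5 had 17.9 ± 1.64 FPKM and Kcnq3 8.20 ± 1.10. The cardiac and epithelial member Kcnq1 was at 0.164 FPKM. Not all Kv7 genes are reported here by name, and the levels given are not the level of the subfamily as a whole.

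The remaining voltage-gated subfamilies spanned a wide range of levels. The Kv2 genes carry the delayed rectifier of neuronal somata. Of these only Kcnb2 is reported here by name, at 1.42 ± 0.181 FPKM, which is not the level of the subfamily as a whole. The Kv3 genes encode channels that close fast and allow high firing rates, and among them Kcnc1 stood at 51.0 ± 4.19, Kcnc4 at 31.7 ± 2.13 and Kcnc2 at 21.6 ± 2.09 FPKM. Kcnd2, a Kv4 channel of the dendritic A-type current, had 24.4 ± 2.14 FPKM, against 11.98 ± 1.46 for Kcnd3. Among the ether-a-go-go channels (Kv10, Kv11 and Kv12), Kcnh3 led with 54.8 ± 2.02 FPKM, followed by Kcnh1 at 18.5 ± 1.38, and by Kcnh4 at 9.42 ± 1.54 and Kcnh2 at 9.31 ± 0.730.

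Kcnj4 led the inward rectifiers with 51.8 ± 3.74 FPKM. The G protein-gated members, opened by receptors coupled to inhibitory G proteins, followed in the order Kcnj9 at 45.4 ± 4.18, Kcnj3 at 29.99 ± 4.67 and Kcnj6 at 14.2 ± 2.17 FPKM, while Kcnj5 was at 0.201. Kcnj10, known as the inward rectifier of astrocytes, had 34.7 ± 3.00 FPKM, and Kcnj11, the pore of neuronal ATP-sensitive channels, had 15.4 ± 0.905. Kcnj8, the vascular counterpart of Kcnj11, was under the level tested at 0.902 ± 0.131 FPKM, beside a summed level of 6 mural cell markers of 46.9 to 56.0 FPKM in control. Kcnj13, which is typical of choroid plexus, was at 0.559 FPKM.

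Kcnk1 led the K2P leak channels with 41.2 ± 4.30 FPKM. Kcnk9 at 20.9 ± 1.36, Kcnk2 at 20.3 ± 2.40 and Kcnk12 at 17.5 ± 2.13 FPKM lay close together behind it. Kcnk3 and Kcnk4 were at 9.78 ± 1.24 and 9.76 ± 1.18 FPKM. Of the silent subunits, Kcnf1 had 39.6 ± 3.00 and Kcnv1 23.7 ± 3.58 FPKM. For the large-conductance BK channel, the pore gene Kcnma1 stood at 12.3 ± 1.78 FPKM and the neuronal beta subunit Kcnmb4 at 48.9 ± 2.14, with the 3 other beta subunits under 1. Kcnn2 gave most of the small-conductance calcium-activated (SK) level, with 20.6 ± 1.57 FPKM, and Kcnt1 had 24.8 ± 2.34 against 7.10 ± 0.966 for Kcnt2. The KChIP genes, whose calcium-binding products attach to Kv4 channels, stood at 43.7 ± 3.16 for Kcnip2, 41.1 ± 3.65 for Kcnip3, 23.7 ± 3.08 for Kcnip4 and 8.45 ± 0.803 FPKM for Kcnip1.

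**Figure D1:**
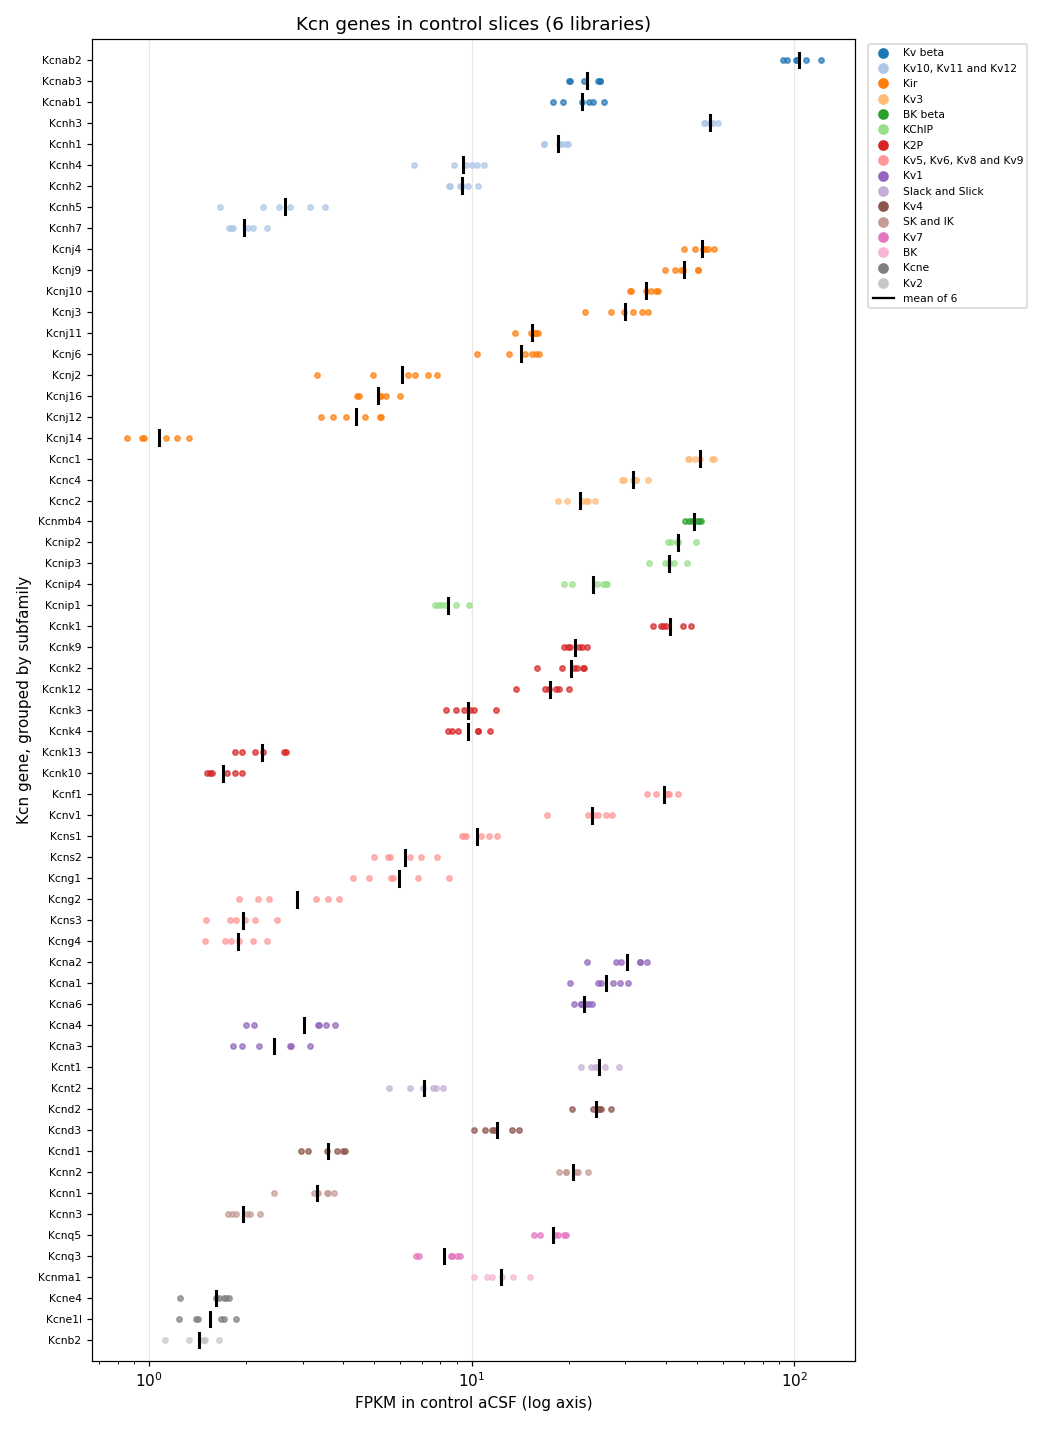
FPKM of 62 of the tested Kcn genes in the 6 control libraries, on a log axis, grouped by subfamily (colour), with points for single libraries and a black bar for their mean. Kcnab2 lies at the top with a mean of 103 FPKM and Kcnh3 and Kcnj4 follow at 54.8 and 51.8, while Kcnj14 lies lowest of the genes drawn at 1.08.

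The order of the leading and the next member within a subfamily held from library to library. In 12 of the 14 subfamilies with at least 2 members at 1 FPKM or more, the leading gene exceeded the next in 6 of 6 control libraries (exact two-sided sign-flip permutation test, p = 0.03125 in each, the smallest that 6 libraries can give, and 0.0365 adjusted over the 14). Both genes were picked by the same means, so the test speaks of the stability of the order alone. The exceptions were the KChIP genes, where Kcnip2 exceeded Kcnip3 in 4 of 6 control libraries (exact permutation p = 0.406), and the Kcne genes, where Kcne4 at 1.62 FPKM and Kcne1l at 1.55 did not separate (exact permutation p = 0.594). In 11 subfamilies the order also held in all 6 cocktail libraries. The inward rectifiers were the remaining case: Kcnj4 exceeded Kcnj9 by a ratio of 1.14 in control, in 6 of 6 libraries, and in 4 of 6 cocktail libraries.

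The 28 genes under the level tested fell into 3 kinds. Kcnk16, Kcnk18, Kcnmb3 and Kcnv2 were listed at 0 in all 12 libraries. Another 11 were at 0 in some libraries: Kcna7, Kcna10, Kcne1, Kcne2, Kcne3, Kcnh8, Kcnj1, Kcnj15, Kcnk7, Kcnk15 and Kcnn4. These hold genes known mainly from heart, kidney, epithelia and blood cells, such as Kcne1, Kcnj1 and Kcnn4, and none of them had more than 12 reads in any library. The last 13 were Kcna5, Kcng3, Kcnh6, Kcnj5, Kcnj8, Kcnj13, Kcnk5, Kcnk6, Kcnmb1, Kcnmb2, Kcnq1, Kcnrg and Kcnu1. They had 72 reads or fewer. Genes under 1 FPKM entered a fit with no filter (limma), which called 123 of 17477 loci and none of the 90 members tested in it. Kcnk6, a K2P gene singled out after its values were seen, went from 0.571 ± 0.0681 to 0.450 ± 0.0956 FPKM on 18 to 35 reads a library, lower in 6 of 6 mice (exact two-sided sign-flip permutation p = 0.03125, the smallest possible).

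None of the 66 tested Kcn genes passed the comparison of cocktail with control, which asks whether transcript levels in the same brain differed after stimulation. With limma on log2(FPKM + 1), the mouse as block and Benjamini-Hochberg adjustment over 12032 loci, 180 loci (1.50%) were called at an adjusted p under 0.05, and 0 of these were Kcn genes, with voom on recovered reads also calling 0. At an unadjusted p under 0.05, 2 Kcn genes were higher in cocktail, beside 5.24% of all loci, and 5 were lower, beside 2.80%. Kcnj2 and Kcnh7 were the higher ones, and Kcnk12, Kcnk9, Kcnj4, Kcnh4 and Kcnh1 the lower ones. The lowest adjusted p was that of Kcnj2, 0.0633.

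The intervals show how large a difference the 6 pairs could have missed. The fold change is on the log2(FPKM + 1) scale, which understates the change of low genes, and its 95% interval reached a median of 0.13 to either side for the Kcn genes. For 65 of the 66 the interval lay inside 0.5 in either direction, beside 98.3% of all loci, and the exception was Kcnj2. The log2 fold changes ran from -0.25 for Kcnh4 to 0.39 for Kcnj2, with a median of -0.01 beside 0.01 over all loci tested. In sign, 29 were higher and 37 lower, while over all loci 6550 were higher and 5482 lower. Under a median-of-ratios scaling of the FPKM the split became 23 higher and 43 lower, and under quantile normalization 22 and 44. With voom on recovered reads it was 23 and 43, and the median was -0.049 beside -0.0047 over all loci tested. The split was 33 and 33 without mouse 4 and 34 higher and 32 lower without mouse 5. It was 24 higher and 42 lower without mouse 1 and also without mouse 2. Without mouse 3 there were 27 higher and 39 lower, and without mouse 6 there were 26 higher and 40 lower. No Kcn gene had groups that did not overlap, beside 0.914% of all loci.

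**Figure D2:**
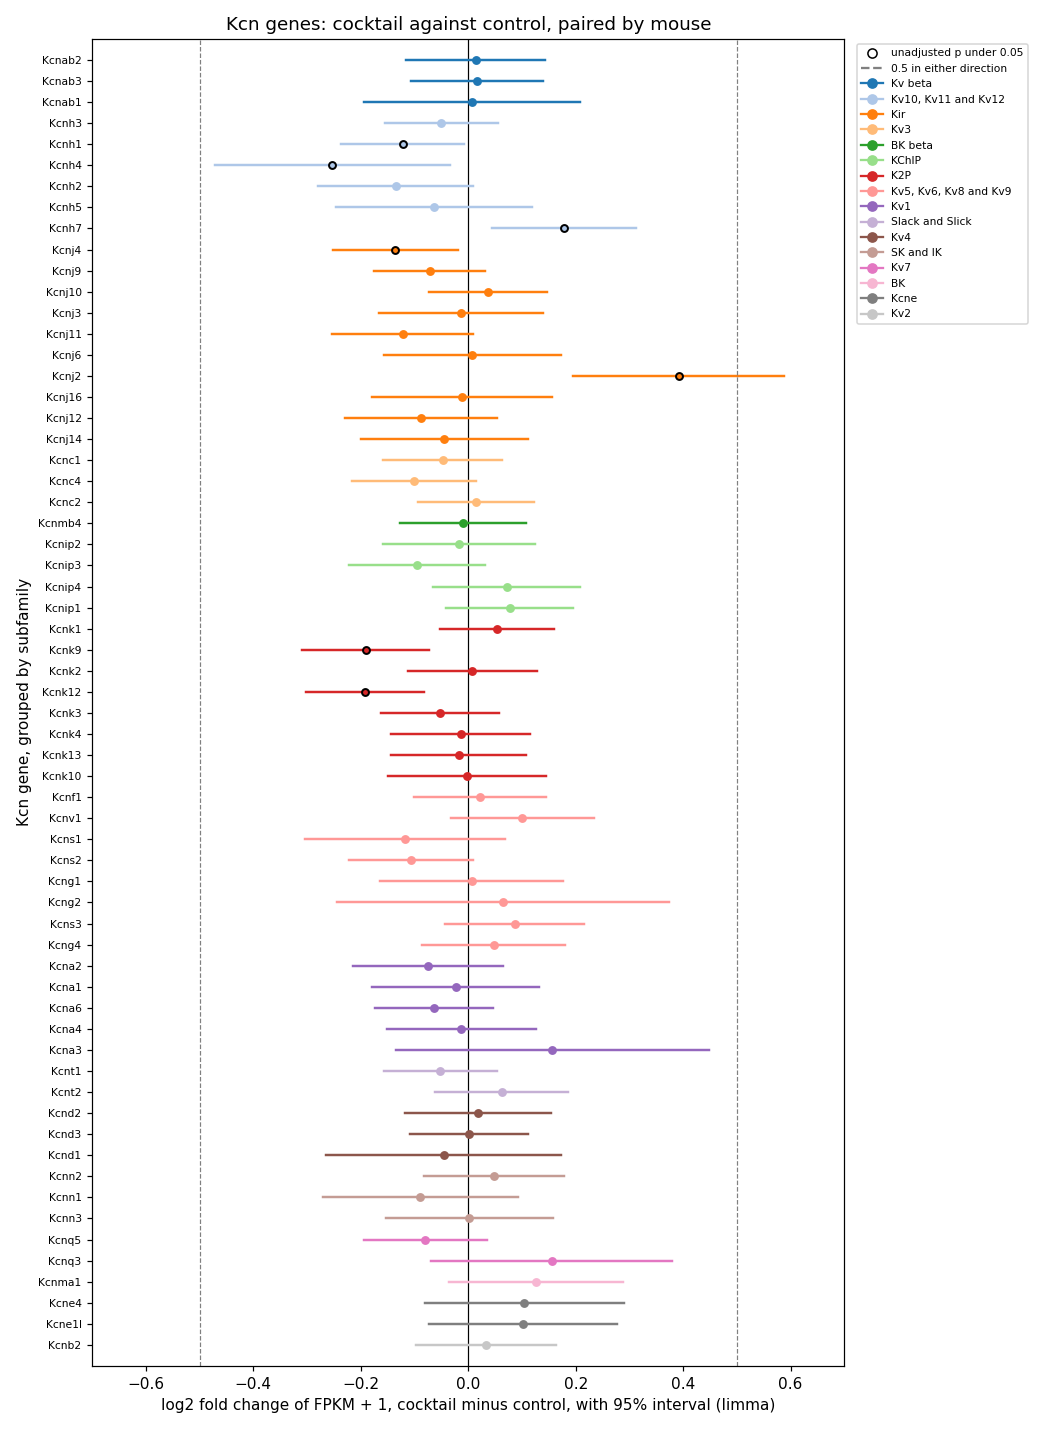
Log2 fold change of FPKM + 1 in cocktail over control for 62 of the tested Kcn genes, grouped by subfamily (colour), with 95% intervals from limma and a black ring where the unadjusted p was under 0.05. Kcnj2 at 0.39 stands farthest to the right and its interval alone crosses the dashed line at 0.5.

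Kcnj2 had the highest fold change of the members. It encodes Kir2.1, an inward rectifier that holds neurons, glia and vessel cells near rest, and its locus lies at chr11:111066164-111076825 (mm10). Its control level by mouse, from 1 to 6, was 3.33, 4.97, 6.66, 7.84, 6.36 and 7.34 FPKM. Its cocktail level in the same order was 6.15, 8.44, 7.02, 10.1, 9.37 and 7.79 FPKM. The cocktail side was higher in every mouse, with the largest steps in mice 1 and 2, which had the lowest control levels, and the small ones in mice 3 and 6, and the groups overlapped. The means were 6.08 ± 1.67 in control and 8.14 ± 1.47 FPKM in cocktail (SD, n = 6), a log2 fold change of 0.39 ± 0.0897 (SE, 95% interval 0.20 to 0.59). The unadjusted p was 0.000986 and the adjusted p 0.0633 (limma), and the exact two-sided sign-flip permutation p was 0.03125. With a mouse left out, the adjusted p of Kcnj2 (limma) ran from 0.0345 without mouse 6, below the threshold, to 0.235 without mouse 2. Without the mouse block it was 0.680. Higher in 6 of 6 mice held for 1 of the 66 Kcn genes, Kcnj2, and for 3.64% of all loci.

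Kcnj2 is also made by vessel cells and microglia, and their markers are given beside it. The 6 endothelial markers summed to 41.6 to 49.6 FPKM in control and 42.4 to 53.7 in cocktail, higher in 5 of 6 mice. The 6 mural cell markers summed to 46.9 to 56.0 and 46.1 to 64.2 FPKM, and the 8 microglia markers to 105 to 120 and 105 to 129 FPKM, each higher in 4 of 6 mice. The part of these cells in the Kcnj2 level was not tested. The neighbouring Kir gene Kcnj16, 38.2 kb away on the same chromosome, had 5.13 ± 0.607 FPKM in control and 5.08 ± 0.517 in cocktail, with a log2 fold change of -0.01 (95% interval -0.18 to 0.16).

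The promoter of Kcnj2 is shown because this gene had the highest fold change. The 300 bases below (RefSeq, GRCm38.p6, chr11:111065914-111066213, plus strand) span the annotated start. Both strands of every promoter were searched for the letters of 4 motifs. The cyclic AMP response element was spelled TGACGTCA. The AP-1 site, bound by the Fos and Jun proteins, was spelled TGANTCA. The box bound by the basal transcription machinery, known as the TATA box, was spelled TATAAA. The SRF CArG box was searched by its usual consensus, and none of these was in the Kcnj2 window.
Kcnj2 promoter: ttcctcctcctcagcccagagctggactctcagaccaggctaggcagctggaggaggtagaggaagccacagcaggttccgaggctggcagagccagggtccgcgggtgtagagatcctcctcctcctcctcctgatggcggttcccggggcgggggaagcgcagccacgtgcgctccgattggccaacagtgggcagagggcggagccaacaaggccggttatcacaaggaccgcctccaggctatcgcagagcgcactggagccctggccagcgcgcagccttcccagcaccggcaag

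Of the 94 Kcn genes, 69 had a promoter in the same RefSeq set, and a gene was counted where any of its windows held the letters. The cyclic AMP response element letters were found in 0 of the 69, beside 2.03% of all genes with a promoter there, and the CArG box in 0, beside 1.81%. The AP-1 letters were in 4, Kcne3, Kcnip3, Kcnip4 and Kcnk2 (5.80%, beside 8.97%). The TATA box letters were in 5, Kcnab1, Kcnj9, Kcnj13, Kcnj15 and Kcnj16 (7.25%, beside 15.7%). A promoter rich in CpG was found for 25 of the 69 genes (36.2%, beside 36.0%).

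Of the 10 inward rectifiers tested, 7 were lower in cocktail and 3, with Kcnj2 among them, were higher. Kcnj4, which encodes Kir2.3 of excitatory neurons, lay between 45.7 and 56.4 FPKM in the control libraries (median 52.5), against 44.2 to 52.2 with cocktail (median 46.3). Its log2 fold change was -0.14 ± 0.0533 (SE, 95% interval -0.25 to -0.02, adjusted p = 0.480, limma), lower in 5 of 6 mice. The G protein-gated genes lay nearer to 0, with -0.07 for Kcnj9, -0.01 for Kcnj3 and 0.01 for Kcnj6. Kcnj10 was at 0.04 (95% interval -0.07 to 0.15), and Kcnj11 at -0.12 (95% interval -0.25 to 0.01).

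The lowest unadjusted p-values among the lower genes were those of a pair of K2P genes. Kcnk12, or THIK-2, at chr17:87745821-87797994, encodes a subunit that passes little current on its own. In control it had 18.7, 18.2, 20.0, 16.9, 13.8 and 17.4 FPKM in mice 1 to 6, and in cocktail 16.4, 14.9, 16.3, 13.9, 12.7 and 16.9. The cocktail side was lower in each mouse, although the groups overlapped. The means were 17.5 ± 2.13 and 15.2 ± 1.65 FPKM, a log2 fold change of -0.19 ± 0.0502 (SE, 95% interval -0.30 to -0.08, adjusted p = 0.120, limma). On recovered reads, voom gave -0.34.

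Kcnk9, or TASK-3, at chr15:72512119-72546279, encodes an acid-sensitive leak channel that receptors coupled to Gq proteins close. Its control levels in mice 1 to 6 were 22.7, 22.0, 19.3, 20.1, 19.9 and 21.6 FPKM, and its cocktail levels 16.6, 19.8, 17.3, 17.8, 17.4 and 20.6. Mouse 1 had the widest step, a log2 difference of -0.43, and the other 5 lay from -0.18 to -0.06. The means were 20.9 ± 1.36 and 18.2 ± 1.59 FPKM, a log2 fold change of -0.19 ± 0.0539 (SE, 95% interval -0.31 to -0.07, adjusted p = 0.169, limma). The more abundant Kcnk1 was at 0.05 (95% interval -0.05 to 0.16) and the heat- and stretch-sensitive Kcnk2 at 0.01 (95% interval -0.11 to 0.13). Of the 8 tested K2P genes, 6 were lower in cocktail and 2 higher. Lower in 6 of 6 mice held for 3 of the 66 Kcn genes, Kcnk12, Kcnk9 and Kcns2, and for 2.66% of all loci. Kcns2, a silent subunit, went from 6.22 ± 1.05 to 5.72 ± 1.14 FPKM, a log2 fold change of -0.11 (adjusted p = 0.677, limma).

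**Figure D3:**
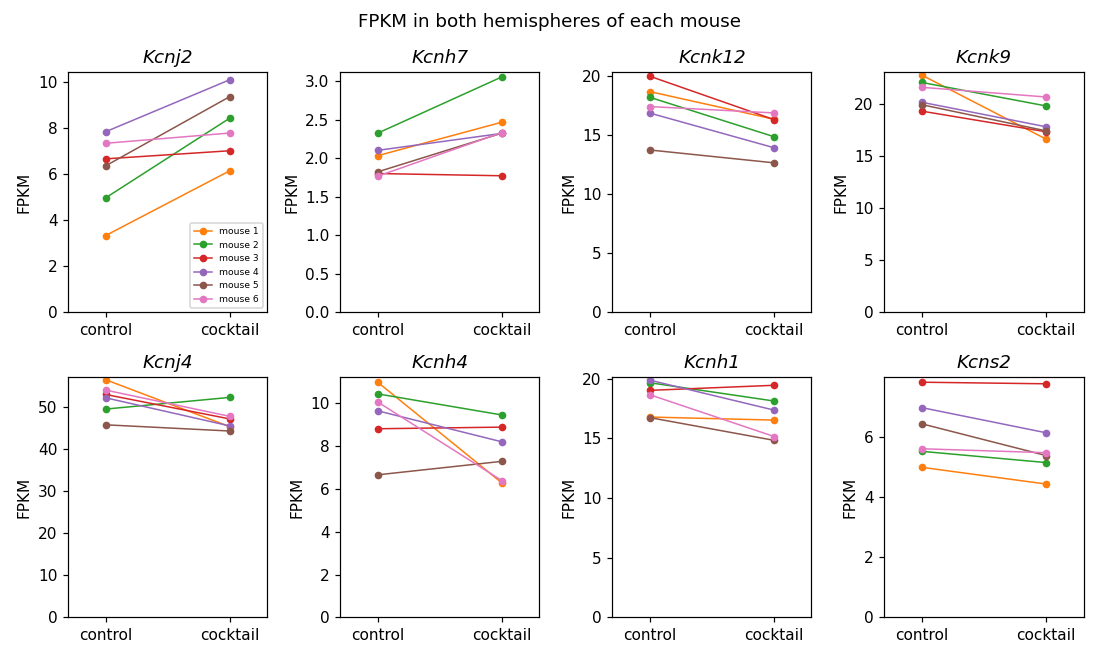
FPKM in both hemispheres of each of the 6 mice (lines join control and cocktail) for the 7 members with an unadjusted p under 0.05 and for Kcns2. The 6 Kcnj2 lines all go up, those of Kcnk12, Kcnk9 and Kcns2 all go down, and in every panel the control and cocktail ranges overlap.

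The ether-a-go-go genes held 3 of the 7 members with an unadjusted p under 0.05, and 5 of their 6 tested members were lower in cocktail. Kcnh4, a Kv12 channel of the forebrain, lay between 6.65 and 11.0 FPKM in the control libraries (median 9.84), against 6.26 to 9.44 with cocktail (median 7.73). It was lower in 4 of 6 mice, with a log2 fold change of -0.25 ± 0.10 (SE, 95% interval -0.47 to -0.03, adjusted p = 0.485, limma). Mice 1 and 6 had the widest steps, with log2 differences of -0.72 and -0.58, and the fold change was -0.16 without mouse 1 and -0.19 without mouse 6. Kcnh1, a Kv10 channel, went from 18.5 ± 1.38 to 16.9 ± 1.77 FPKM, a log2 fold change of -0.12 (adjusted p = 0.552, limma), lower in 5 of 6 mice. Kcnh3, the leading member of the subfamily, was at -0.05 (95% interval -0.16 to 0.06), lower in 4 of 6 mice. Kcnh2, the mouse ERG channel, was at -0.14 (95% interval -0.28 to 0.01).

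Kcnh7, another Kv11 channel, was the only tested member of this subfamily that was higher in cocktail. It had 1.97 ± 0.219 FPKM in control and 2.38 ± 0.411 in cocktail, a log2 fold change of 0.18 ± 0.0613 (SE, 95% interval 0.04 to 0.31, adjusted p = 0.350, limma), higher in 5 of 6 mice. It rests on 82 to 197 reads a library, and voom on recovered reads gave 0.27. Of its exon bases, 4.75% overlap Gca on the opposite strand, and the strand setting of the authors' counting is not given in the sources used here.

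The other voltage-gated genes were centred slightly below 0, and the intervals of the abundant ones were narrow. Kcnq5 was at -0.08 (95% interval -0.19 to 0.04), lower in 5 of 6 mice. Kcnq3, which also forms M channels, went from 8.20 ± 1.10 to 9.32 ± 1.84 FPKM, at 0.16 (95% interval -0.07 to 0.38). Of the Kv3 genes, Kcnc1 was at -0.05, Kcnc4 at -0.10 and Kcnc2 at 0.01. Kcnd2 and Kcnd3, of the A-type current, were at 0.02 and 0.00, with the interval of Kcnd3 from -0.11 to 0.11. In the Kv1 subfamily, Kcna2 was at -0.08, Kcna1 at -0.02 and Kcna6 at -0.06, and Kcna3, on 34 to 98 reads a library, at 0.16 (95% interval -0.14 to 0.45). In all, 17 of the 24 tested voltage-gated genes were lower in cocktail and 7 higher.

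Of the tested auxiliary genes, 7 of 10 were higher in cocktail and 3 lower, and none had an unadjusted p under 0.05 (limma). All Kv beta genes lay within 0.02 of 0, with Kcnab2 at 103 ± 10.3 FPKM in control and 104 ± 9.06 in cocktail (95% interval of the log2 fold change -0.12 to 0.14). Kcnip2 was at -0.02, Kcnip3 at -0.09, Kcnip4 at 0.07 and Kcnip1 at 0.08. Kcnmb4 was at -0.01 (95% interval -0.13 to 0.11), and 75.3% of its exon bases overlap transcripts annotated on the opposite strand. Other members share this limit, with 40.4% for Kcna6, 31.1% for Kcnj3, 16.5% for Kcnn2 and 14.4% for Kcnk2. What such transcripts added to these levels was not tested. Kcnma1, the pore partner of Kcnmb4, went from 12.3 ± 1.78 to 13.6 ± 2.41 FPKM and was higher in 5 of 6 mice. Its log2 fold change was 0.13 (95% interval -0.04 to 0.29), and 0.21 without mouse 3. Kcnn2 was at 0.05, the sodium-activated Kcnt1 at -0.05, and the silent Kcnf1 and Kcng1 at 0.02 and 0.01. The 3 tested members that varied most between control mice were Kcng1, Kcng2 and Kcnj2, with a coefficient of variation of 25.6%, 28.8% and 27.4%.

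Summed over a class, the levels of both groups overlapped. The voltage-gated sum was 516 ± 24.8 FPKM in control and 494 ± 24.0 in cocktail (SD, n = 6), lower in 5 of 6 mice. The inward rectifiers summed to 210 ± 14.2 and 203 ± 9.70 FPKM and the K2P genes to 124 ± 7.56 and 120 ± 5.05, each lower in 5 of 6 mice. The auxiliary sum was 318 FPKM in both, lower in 2 of 6 mice, and the silent subunits summed to 93.2 ± 6.51 and 94.6 ± 7.50. All 94 genes together gave 1333 ± 55.1 FPKM in control and 1303 ± 50.7 in cocktail, lower in 5 of 6 mice, while the summed FPKM of all loci lay between 290155 and 321723 in control, against 310768 to 321759 with cocktail.

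**Figure D4:**
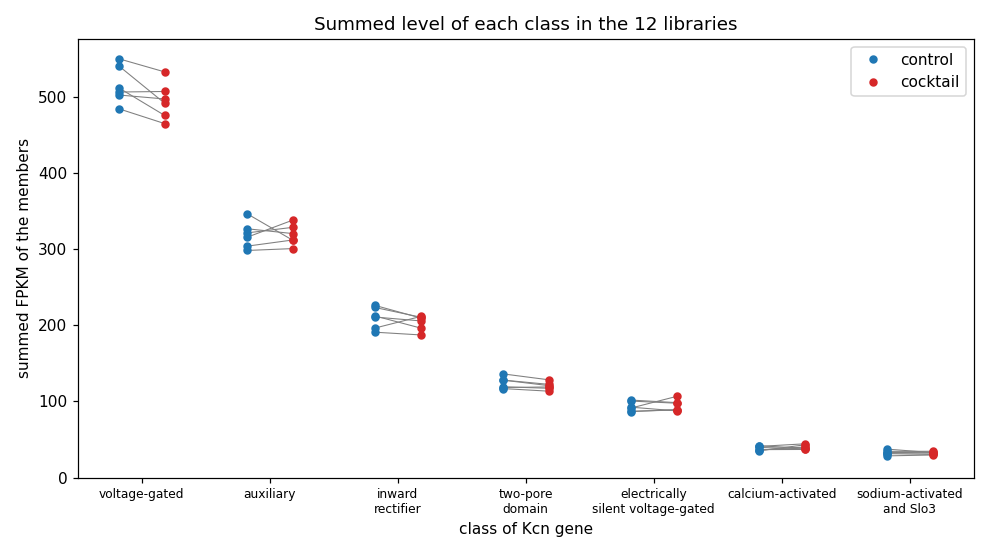
Summed FPKM of the Kcn genes of each class in the 12 libraries, with a line joining the control (blue) and cocktail (red) hemisphere of each mouse. The voltage-gated sum lies near 516 in control and 494 in cocktail, and the ranges of both groups overlap in all 7 classes.

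Genes that encode other known partners of these channels were looked at beside them. Of 18 such genes 15 were tested, and 0 were called (limma). In cocktail 5 were higher and 10 lower, with a median log2 fold change of -0.03. At an unadjusted p under 0.05 (limma) there were 3, beside 968 of the 12032 loci tested. These 3 were Amigo1, Adam23 and Abcc9, singled out after their values were seen. Over all loci tested, 2.66% were lower in 6 of 6 mice and 3.64% were higher in 6 of 6. Amigo1, an adhesion protein that assembles with Kv2 channels, went from 20.6 ± 1.81 to 18.3 ± 1.51 FPKM. It was lower in 6 of 6 mice, with a log2 fold change of -0.16 ± 0.0505 (SE, adjusted p = 0.235, limma). Adam23, a receptor of the Kv1-associated protein Lgi1, was at -0.11 and lower in 6 of 6 mice (adjusted p = 0.594, limma). Abcc9, the sulphonylurea receptor of vascular ATP-sensitive channels and also 1 of the mural cell markers, went from 0.976 ± 0.172 to 1.17 ± 0.112 FPKM, higher in 6 of 6 mice (adjusted p = 0.527, limma). The Kv4 partners Dpp6 and Dpp10 were both at -0.01.

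Of the cell type markers, none was called (limma), but all 8 oligodendrocyte genes and all 8 inhibitory neuron genes were higher in cocktail. Their median log2 fold change was 0.12 and 0.09, and that of the 8 excitatory neuron genes was -0.00. The summed level of the oligodendrocyte genes lay between 2007 and 2575 FPKM in control, against 2312 to 2656 with cocktail. Of the astrocyte genes 7 of 8 were higher, with a median of 0.06. Of the leptomeningeal genes 4 of 5 tested were higher, with a median of 0.13, and Col1a1 among them was at 0.26 (adjusted p = 0.101, limma), higher in 6 of 6 mice. Of the striatal genes 3 of 4 tested were lower, with a median of -0.08. What part these cells had in the Kcn levels was not tested.

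Several Kcn genes lie next to each other, with levels that were close for some neighbours and far apart for others. Kcnj9 and Kcnj10 lie 11.9 kb apart and had 45.4 and 34.7 FPKM in control. Kcna3, Kcna2 and Kcna10 follow each other within gaps of 63.4 and 68.1 kb, with 2.44, 30.2 and 0.0449 FPKM. Kcna1 and Kcna6, 62.5 kb apart, had 26.2 and 22.3 FPKM.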

How the data were processed

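RNA-seq of poly-A RNA (single reads of 50 bp, strand-specific) was analysed from the FPKM deposited by the authors per library. Per the labels and processing notes, the authors used BWA 0.6.1, TopHat 1.4.1, Cufflinks 1.3.0, HTSeq 0.6.1p1 and DESeq2 1.6.3 on mm10. From the deposited DESeq2 table, the mean normalised signal per gene was read as the authors' mean, and gave a check of the recovered reads, with a ratio of 0.814 to 1.02 over the tested members. Its remaining columns hold the authors' fold changes, p-values and group means and were not used. Reads were recovered from the interval of each FPKM: 82.8% of 36412 values under 20 reads came out whole to within 0.05.

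Values entered limma 3.58.1 (R 4.3.3) as log2(FPKM + 1), with the mouse as block and a variance trend, over 12032 loci of mean FPKM at or above 1, with Benjamini-Hochberg adjustment at 0.05. The script was tested on simulated data. Single values were compared by exact two-sided sign-flip permutation over 6 mice. Both hemispheres of a mouse share a number in the labels: deviations from the group means correlated at 0.216 to 0.406 in the 6 same-mouse pairs, against -0.420 to 0.445 with a median of -0.07 in 30 pairs of different mice. No pair of libraries of the same group agreed within sampling noise (chi-square per gene of at least 7.80), and pairs across the groups were not compared in this way. Named were any member called, the leading tested member of each subfamily, the 10 most abundant, the 5 highest and 5 lowest fold changes among those not called and the 3 most variable. Others that the text names were picked for their role or after their values were seen. The values of 4 tested members are not reported here by name, although counts and sums include them. The members, lists and tests were chosen with earlier results of these data known. Alternatives covered the pseudocount, filter, scaling, trend, block, voom and each mouse left out. Figures used matplotlib 3.10.9 (Python 3.11.15).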

Additional observations from a re-analysis of the deposited data

Results flagged for a closer look

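Among the named members, 81 groups of 6 values were looked at for a single value that stood apart from the rest (Dixon's test), and 6 were found, where chance gives about 4.05 (1 in 20 groups). Kcna2 in the cocktail library of mouse 6 had 33.7 FPKM, against 26.3 to 29.0 in the other 5, a gap of 0.646 of the range. Kcnh2 was also highest in that library, at 10.1 FPKM against 7.54 to 8.28 (0.708 of the range). Both encode voltage-gated subunits, and neither passed the comparison of cocktail with control (limma).

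In control, Kcne4 of mouse 3 had 1.24 FPKM against 1.61 to 1.77 (0.695 of the range), and Kcnip2 of mouse 5 had 49.7 FPKM against 40.7 to 43.6 (0.671). Without mouse 5, the control means of Kcnip2 and Kcnip3 stood at 42.5 and 42.2 FPKM. Of the log2 differences within a mouse, that of Kcnk9 in mouse 1 was -0.43, against -0.18 to -0.06 (0.666 of the range). That of Kcnt1 in mouse 6 was -0.24, against -0.06 to 0.01 (0.706).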

How the results depend on the processing

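No Kcn gene was called lower in any alternative, and none was called higher except Kcnj2 without mouse 6, so that over the mice left out in turn the number called higher ran from 0 to 1. Over all loci, the 180 calls became 88 with no replicate block and 118 with voom, and 104 to 183 with a mouse left out (the lowest without mouse 4, the highest without mouse 6), and the cause was not tested. Other filters gave 123 (none) and 131 (at least 5 FPKM). Without the block, the lowest adjusted p among the Kcn genes was 0.401 (Kcnk9, limma), and with voom 0.0632 (Kcnk12). For Kcnj2 the log2 fold change ranged from 0.33 to 0.46 and the adjusted p from 0.0345 to 0.680 (limma) over the alternatives. Of 374 values of the 27 named genes, 355 kept their direction and side of the threshold. Signs turned in 18, in 8 genes whose main value was at most 0.064 in size: Kcnab2 was at -0.013 with quantile normalization and -0.031 with voom, Kcng1 at -0.0015 after median-of-ratios scaling, -0.0090 after quantile normalization and -0.075 with voom, and Kcng2 at -0.10 with voom. With a mouse left out the ranges that cross 0 were -0.0181 to 0.0731 for Kcnab2, -0.0383 to 0.0600 for Kcnd2, -0.0248 to 0.0532 for Kcnf1, -0.0725 to 0.0483 for Kcng1, -0.0492 to 0.167 for Kcng2, -0.0745 to 0.0320 for Kcnip2, -0.0590 to 0.0242 for Kcnmb4 and -0.00586 to 0.0789 for Kcnn2. Of the fold changes not called, that of Kcnq3 ranged from 0.09 to 0.27, Kcna3 from 0.05 to 0.29 and Kcnma1 from 0.09 to 0.21. The order of leading and next gene, recomputed with the median and with each mouse left out, held in 12 subfamilies each time, although the next gene changed (to Kcnk2 without mouse 1 and by the median, and to Kcnab1 without mouse 6). With 5 libraries the exact permutation p of each was 0.0625 (adjusted 0.0729), the smallest possible, so those tests cannot pass.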
